A study of Mus musculus with 10 samples.

Results

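Hemoglobin genes and 2 further genes of the red cell lineage were followed across 10 mouse melanomas, 5 of them Fes knockout (Fes KO) and 5 Fes wild type (Fes WT). The genes were chosen by symbol. Of 8 symbols asked for, 6 were present among the 47643 genes measured: the adult alpha globin genes Hba-a1 and Hba-a2, the adult beta globin genes Hbb-bs and Hbb-bt, the heme synthesis gene Alas2 and the red cell membrane gene Slc4a1. Hbb-b1 and Hbb-b2 were not analysed here. Every tumour carried Tyr::CreERT2/+, a Cre recombinase that the tyrosinase promoter drives in melanocytes and that 4-hydroxytamoxifen activates, together with BRafV600E/+ and Ptenl/l. The groups differed at Fes, which was Fes-/- in one and Fes+/+ in the other, and all mice had 5 mM 4-hydroxytamoxifen applied to the skin of the back. RNA was taken from bulk tumour tissue, so cells of blood, stroma and skin contribute to each value. Nothing in the labels ties each tumour to an animal of its own, so p-values measure only the spread between these tumours.

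Adult hemoglobin is a tetramer of alpha and beta globin chains, each holding a heme group that binds oxygen. The alpha genes and the beta genes lie in separate clusters, and erythroid precursors transcribe both at very high rates while making heme, whose first step in these cells is carried out by the enzyme that Alas2 encodes. Circulating red cells have no nucleus in mammals, and the youngest of them, the reticulocytes, still hold globin mRNA, so blood in a tissue sample contributes globin reads.

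Each tumour had between 13226783 and 16599120 counts in all, and 20505 to 22395 genes had at least 1 count. Fes, the targeted gene, was at 33.4, 32.1, 29.2, 57.5 and 42.3 CPM (counts scaled to the library size, as edgeR gives them) in Fes KO 1 to 5 and at 84.6, 74.5, 72.4, 72.7 and 102 CPM in Fes WT 1 to 5, so the groups did not overlap and transcript remained in the knockout. Its log2 difference, Fes KO minus Fes WT, was -1.06 (SE 0.19, edgeR adjusted p = 0.0846). 2 tumours stood apart in tissue content, Fes KO 2 in keratinocyte transcripts and Fes WT 3 in skeletal muscle transcripts. Fes KO 2 was also second highest in skeletal muscle transcripts, at a summed 2179 CPM against 504 CPM in Fes WT 1, the next. Its mean log2 CPM of melanocyte markers, 5.91, was the highest too, with Fes KO 4 next at 3.67. Xist was at 713, 670 and 720 CPM in Fes KO 1, Fes KO 2 and Fes WT 5 and at 0.678 CPM or less in the others.

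The alpha and beta genes each form a pair of near-identical copies, which bears on how their reads can be assigned. On GRCm38, Hba-a1 (ENSMUSG00000069919) lies on chromosome 11 from 32283511 to 32284465 and Hba-a2 (ENSMUSG00000069917) from 32296489 to 32297298, both on the plus strand with starts 13.0 kb apart. Hbb-bs (ENSMUSG00000052305) lies on chromosome 7 from 103826534 to 103828096 and Hbb-bt (ENSMUSG00000073940) from 103812524 to 103813996, both on the minus strand. Each of the 4 genes has 3 exons in its main transcript. Fes is on chromosome 7 as well, 23.4 Mb from Hbb-bt. The coding sequences of Hba-a1 and Hba-a2 differ at 1 of 429 bases, C381T in codon 127 when Hba-a1 is named first and positions are counted from the A of the start codon, and the encoded proteins of 142 residues are the same. Those of Hbb-bs and Hbb-bt differ at 1 of 444 bases, C417T in codon 139 with Hbb-bs first, and again encode the same protein, of 147 residues. The 4 stretches that hold these differences are shown because coding reads can be assigned to one copy only through them. They are taken from the GENCODE M21 transcripts and run 5′ to 3′ on the coding strand, with the differing base in capitals. They lie at chr11:32284313-32284373 (Hba-a1, plus strand), chr11:32297130-32297190 (Hba-a2, plus strand), chr7:103826665-103826722 (Hbb-bs, minus strand) and chr7:103812656-103812713 (Hbb-bt, minus strand), all in coding exon sequence.
Hba-a1: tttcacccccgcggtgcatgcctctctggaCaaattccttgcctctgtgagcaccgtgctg
Hba-a2: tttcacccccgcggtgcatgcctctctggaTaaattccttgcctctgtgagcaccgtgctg
Hbb-bs: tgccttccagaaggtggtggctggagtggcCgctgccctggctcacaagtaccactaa
Hbb-bt: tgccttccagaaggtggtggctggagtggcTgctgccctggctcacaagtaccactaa

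Of the 380 windows of 50 coding bases in either alpha gene, 49 (12.9%) occurred in the transcripts of no other gene. For either beta gene it was 28 of 395 windows (7.09%). Over the whole main transcript, untranslated parts included, the share was 32.5% for Hba-a1, 13.1% for Hba-a2, 34.2% for Hbb-bs and 41.7% for Hbb-bt. Read length and the treatment of reads that match several genes are not given here by the sources, so the level of each single copy is uncertain, and the sum over a pair is less affected by how reads were split between its copies.

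The bases before the transcription start are shown for the 5 genes whose levels are compared below. Whether these sequences bear on the levels was not tested. They cover positions -110 to -1 from the RefSeq start (GRCm38.p6), at chr11:32283562-32283671 for Hba-a1 and chr11:32296382-32296491 for Hba-a2 on the plus strand, chr7:103827929-103828038 for Hbb-bs and chr7:103813924-103814033 for Hbb-bt on the minus strand, and chrX:150547307-150547416 for Alas2 on the plus strand. Capitals mark 4 motifs read on either strand. The first is ATATAA, a form of the TATA box. The next is CCAAT, the core of the CCAAT box. Then comes CACCC, of the site type that the erythroid factor KLF1 binds. The last is AGATAA, which GATA factors bind. The paired CCAAT matches on opposite strands in Hbb-bt adjoin each other, and the 3 CACCC matches of Alas2 are on the opposite strand.
Hba-a1: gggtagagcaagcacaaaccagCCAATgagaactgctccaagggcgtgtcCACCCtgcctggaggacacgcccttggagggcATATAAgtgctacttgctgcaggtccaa
Hba-a2: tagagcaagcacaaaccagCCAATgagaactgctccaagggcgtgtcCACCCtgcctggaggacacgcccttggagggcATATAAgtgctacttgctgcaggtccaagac
Hbb-bs: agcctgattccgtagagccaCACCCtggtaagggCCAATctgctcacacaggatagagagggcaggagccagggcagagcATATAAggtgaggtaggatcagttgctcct
Hbb-bt: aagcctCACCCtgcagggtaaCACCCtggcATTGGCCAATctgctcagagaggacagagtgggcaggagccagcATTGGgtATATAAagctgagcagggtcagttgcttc
Alas2: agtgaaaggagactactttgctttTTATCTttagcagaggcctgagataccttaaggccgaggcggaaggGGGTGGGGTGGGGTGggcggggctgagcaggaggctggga

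ATATAA began at position -28 in Hba-a1, -31 in Hba-a2, -30 in Hbb-bs and -29 in Hbb-bt, and was not found within 250 bases of the Alas2 start. Within 250 bases before the start and on either strand, ATATAA was in 9.10% of 32851 mouse promoters, CCAAT in 33.8%, CACCC in 52.0%, AGATAA in 9.99% and TGATAA, another form that GATA factors bind, in 7.94%. In that longer window Hba-a1 and Hba-a2 each held 1 TGATAA and Hbb-bs 1 AGATAA, while Alas2 held 1 AGATAA on the opposite strand. A match describes the letters and is not evidence of binding. The windows of Hba-a1 and Hba-a2 were identical over the 247 bases they share, since their annotated starts are offset by 3 bases. Those of Hbb-bs and Hbb-bt had 185 identical bases of 250 (74%).

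Whether the red cell genes differed between Fes KO and Fes WT tumours was asked first. None of the 5 genes that passed the filter on low counts was called as changed, and the 2 groups overlapped for each of them. The SEs of their log2 differences ran from 0.77 to 1.03, so the test could miss sizeable changes. In edgeR's quasi-likelihood test 0 of 5 passed an adjusted p of 0.05, where 0.175% of all 14816 tested genes did (0.0472% higher and 0.128% lower in Fes KO), and 0 of 5 passed at an unadjusted p of 0.05, where 9.62% of all did. DESeq2 and limma called 0 of the 5 as well. None of the 5 separated the groups completely, which 1.9% of all tested genes did. In bulk tissue, fewer red cells and less of an RNA per red cell cannot be told apart.

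Hbb-bs, the more abundant beta globin gene, was at 17.3, 13.8, 20.1, 137 and 17.9 CPM in Fes KO 1 to 5 and at 42.5, 111, 88.7, 9.95 and 28.7 CPM in Fes WT 1 to 5. Fes KO 4 was the highest tumour of all and Fes WT 4 the lowest. The other Fes KO tumours lay just above Fes WT 4 and below the other Fes WT tumours. The mean CPM was 41.2 ± 53.5 for Fes KO and 56.1 ± 42.2 for Fes WT (SD, n = 5 each), a log2 difference of -0.45 (SE 0.79, edgeR adjusted p = 0.891). Hbb-bt, the other beta globin gene, was at 3.15, 1.31, 3.88, 24.0 and 1.68 CPM in Fes KO and at 8.56, 18.7, 10.4, 1.65 and 3.96 CPM in Fes WT. It followed the order of Hbb-bs closely, with Fes KO 4 and Fes WT 2 again on top. Its log2 difference was -0.35 (SE 0.87, edgeR adjusted p = 0.924).

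Hba-a1, the alpha globin copy nearer the embryonic gene of the cluster, was at 5.11, 4.80, 6.35, 41.6 and 4.81 CPM in Fes KO and at 27.7, 53.8, 36.0, 5.80 and 11.2 CPM in Fes WT. All Fes WT tumours but Fes WT 4 exceeded all Fes KO tumours but Fes KO 4. The means were 12.5 ± 16.3 and 26.9 ± 19.4 CPM (SD, n = 5 each), with a log2 difference of -1.10 (SE 0.78, edgeR adjusted p = 0.674). Hba-a2, its near copy, was at 3.85, 2.62, 3.70, 29.5 and 3.64 CPM in Fes KO and at 0.0653, 12.5, 7.09, 1.04 and 6.02 CPM in Fes WT. Fes WT 1 stood far below every other tumour for Hba-a2, with 1 count, although it had 424 counts of Hba-a1. The means of Hba-a2 were 8.66 ± 11.7 and 5.35 ± 5.04 CPM, and the log2 difference was 0.69 (SE 1.03, edgeR adjusted p = 0.863).

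Alas2 (ENSMUSG00000025270, chromosome X from 150547375 to 150570638, plus strand, 11 exons) encodes the erythroid form of the first enzyme of heme synthesis. It was at 0.883, 1.31, 0.863, 8.89 and 0.802 CPM in Fes KO and at 3.59, 5.60, 5.64, 1.04 and 2.21 CPM in Fes WT. As for Hba-a1, all Fes WT tumours but Fes WT 4 exceeded all Fes KO tumours but Fes KO 4. For Alas2 the highest tumour was Fes KO 4. The means were 2.55 ± 3.55 and 3.62 ± 2.04 CPM, with a log2 difference of -0.50 (SE 0.77, edgeR adjusted p = 0.869). These levels rest on 11 to 136 counts per tumour.

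Slc4a1 (ENSMUSG00000006574, chromosome 11 from 102348824 to 102366203, minus strand, 20 exons) encodes band 3, the anion exchanger of the red cell membrane. It had 0, 192, 0, 6 and 0 counts in Fes KO 1 to 5 and 2, 4, 4, 1 and 0 counts in Fes WT 1 to 5. One tumour, Fes KO 2, thus held nearly all of its reads, at 12.0 CPM against at most 0.392 CPM elsewhere. Slc4a1 did not pass the filter on low counts and was not tested in the fit across genes. In an edgeR fit without that filter its log2 difference was 4.02 (SE 1.77, adjusted p = 0.598).

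**Figure D1:**
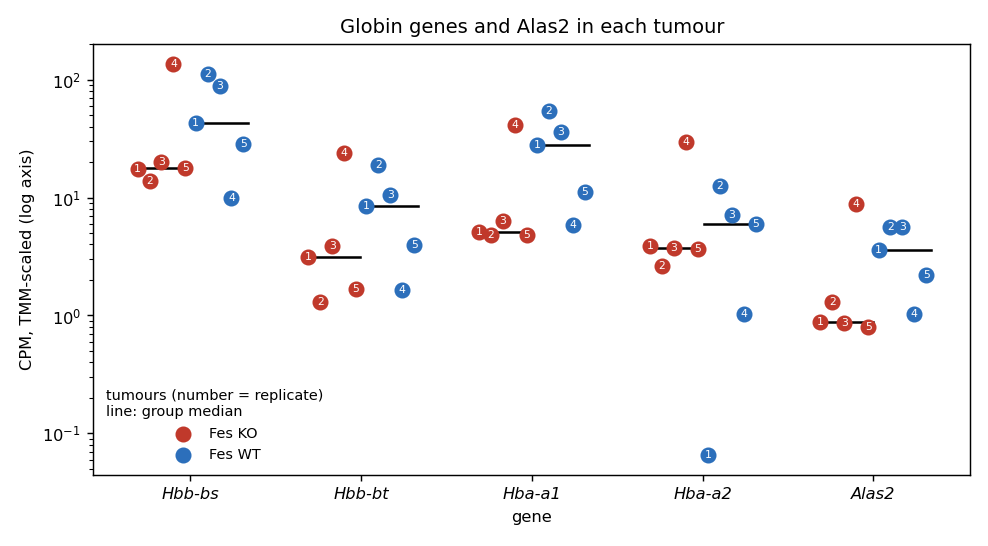
CPM (log axis, TMM-scaled) of Hbb-bs, Hbb-bt, Hba-a1, Hba-a2 and Alas2 in each tumour, red for Fes KO and blue for Fes WT, with the replicate number in each point and a line at the group median. Fes KO 4 is the highest tumour for 4 of the 5 genes, the exception being Hba-a1 with 41.6 CPM against 53.8 CPM in Fes WT 2, and the point at 0.0653 CPM is Hba-a2 in Fes WT 1.

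Per kilobase of exon, the median level over the 10 tumours was 31.7 CPM for Hbb-bs, 10.8 for Hba-a1, 5.66 for Hba-a2, 5.58 for Hbb-bt, 0.732 for Alas2 and 0.0196 for Slc4a1. Each gene spanned wide ranges on this length-scaled level, from 13.0 to 178 CPM per kb for Hbb-bs and from 5.91 to 66.2 for Hba-a1, so neighbours in the order of medians overlapped. The medians of Hba-a2 and Hbb-bt were nearly equal, and those of Alas2 and then Slc4a1 lay below every globin median. Without Fes KO 4, the tumour with most globin reads, the log2 difference moved to -2.35 for Hba-a1 (edgeR unadjusted p = 0.00310, adjusted p = 0.164). For Alas2 it moved to -1.90 (unadjusted p = 0.00387, adjusted p = 0.181) and for Hbb-bs to -1.70 (0.0192 and 0.287). For Hbb-bt it moved to -1.78 (0.0245 and 0.318) and for Hba-a2 to -0.63 (0.516 and 0.837). All 5 were then negative, and none passed the threshold on the adjusted p.

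The summed counts of the 4 adult globin genes give one measure of hemoglobin RNA per tumour. They came to 467, 361, 552, 3546 and 385 counts in Fes KO 1 to 5 and to 1206, 3078, 2168, 302 and 654 counts in Fes WT 1 to 5. Expressed as CPM this was 29.4, 22.5, 34.0, 232 and 28.1 in Fes KO and 78.8, 196, 142, 18.4 and 49.8 in Fes WT. The highest tumour was 12.6-fold above the lowest, the 2 extremes came from different groups, and 4 of the Fes KO tumours lay within 22.5 to 34.0 CPM. Mean CPM was 69.2 ± 91.0 over the Fes KO tumours and 97.0 ± 71.7 over the Fes WT tumours (SD, n = 5 each). On the log2 scale they were 5.43 ± 1.38 and 6.18 ± 1.34, and the difference of -0.76 was smaller than the spread within either group. Without Fes KO 4 the difference was -1.36, and without Fes WT 2, the highest Fes WT tumour, it was -0.40.

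Hemoglobin made up a small part of each library, from 0.00182% of all counts in Fes WT 4 to 0.0233% in Fes KO 4, with a median of 0.00414%. With the globin counts left out of library sizes and scaling factors, the summed difference remained -0.76 and 24 genes were called in place of 26.

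How the 2 copies of each pair were used within a tumour does not depend on library scaling, since it is a ratio of counts from one library. Hba-a2 supplied 43.0% (95% exact Clopper-Pearson interval 34.7 to 51.5), 35.3% (26.8 to 44.6), 36.8% (29.4 to 44.7), 41.5% (38.5 to 44.5) and 43.1% (33.9 to 52.6) of the alpha globin counts in Fes KO 1 to 5. It supplied 0.235% (0.00596 to 1.30), 18.9% (16.6 to 21.4), 16.4% (13.7 to 19.5), 15.2% (9.10 to 23.2) and 35.0% (28.8 to 41.6) in Fes WT 1 to 5. The intervals cover counting error only, as the reads carry no molecular identifiers that the labels name. The Fes KO tumours were close to each other, 3 Fes WT tumours formed a lower set, Fes WT 1 was nearly without Hba-a2, and Fes WT 5 was close to the Fes KO tumours.

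Hba-a1, which supplied the remainder, made up 60.1 ± 3.64% of alpha globin counts in Fes KO and 82.9 ± 12.4% in Fes WT (SD, n = 5 each), a difference of -22.8 percentage points. The groups did not overlap, and the exact permutation test gave p = 0.00794 (2-sided), the smallest that 5 against 5 tumours allow, and 0.0476 after Benjamini-Hochberg adjustment over the 6 single values compared. The nearest tumours, Fes KO 2 at 64.7% and Fes WT 5 at 65.0%, were within each other's counting intervals. Leaving out each tumour in turn gave differences from -27.2 to -18.6 percentage points. As the groups are separate, each such p was fixed at 0.0159, the smallest exact permutation p for 4 against 5 tumours. With the 3 tumours that express Xist left out, the difference was -27.8 percentage points, with an exact permutation p of 0.0571, the smallest that 3 against 4 tumours allow. Pooled over tumours, Hba-a2 supplied 40.8% of alpha globin counts in Fes KO and 16.3% in Fes WT. The part of read assignment between the near-identical copies in this difference was not tested.

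The beta globin genes did not show such a separation. Hbb-bt supplied 15.4%, 8.68%, 16.2%, 14.9% and 8.55% of beta globin counts in Fes KO 1 to 5 and 16.8%, 14.4%, 10.5%, 14.2% and 12.1% in Fes WT 1 to 5. Fes KO 2 and Fes KO 5 had the lowest shares, and their 95% exact intervals, 5.45 to 13.0% and 5.50 to 12.6%, lay below that of Fes KO 4 (13.5 to 16.4%). The means were 12.7 ± 3.80% in Fes KO and 13.6 ± 2.38% in Fes WT, a difference of -0.87 percentage points (exact permutation p = 0.667, adjusted p = 0.800, 2-sided). Without Fes KO 2 the difference was 0.14 and without Fes KO 5 it was 0.18 percentage points. Hbb-bs counts exceeded Hbb-bt counts 4.96- to 10.7-fold, with a median of 5.98-fold.

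**Figure D2:**
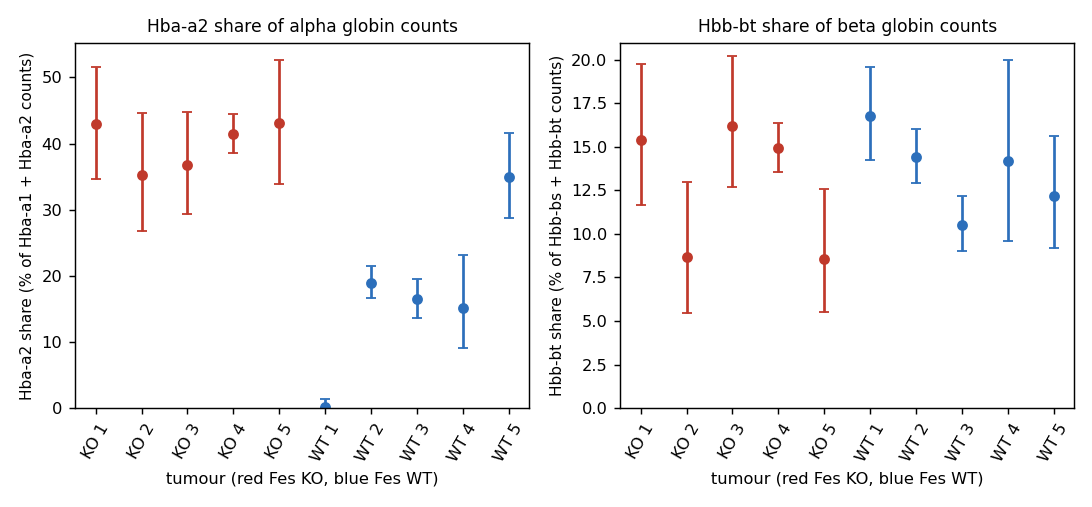
Share of alpha globin counts assigned to Hba-a2 (left, percent) and of beta globin counts assigned to Hbb-bt (right, percent) in each tumour, with 95% exact binomial intervals as bars, red for Fes KO and blue for Fes WT. The Hba-a2 shares of Fes KO lie between 35.3% and 43.1% and those of Fes WT between 0.235% and 35.0%, while the Hbb-bt shares of the groups overlap.

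Alpha and beta globin are needed in equal amounts in the assembled protein, and their RNA kept a narrow ratio across the tumours. Alpha globin genes made up 30.4%, 33.0%, 29.5%, 30.7% and 30.1% of all adult globin counts in Fes KO and 35.2%, 33.9%, 30.3%, 37.1% and 34.6% in Fes WT, over a range of summed levels of 12.6-fold. The means were 30.7 ± 1.31% and 34.2 ± 2.49% (SD, n = 5 each), a difference of -3.47 percentage points with an exact permutation p of 0.0317 (2-sided) and an adjusted p of 0.0952. The groups overlapped through Fes KO 2 and Fes WT 3, and the difference did not pass after adjustment over the 6 values.

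Alas2 gave 30.0, 58.2, 25.4, 38.4 and 28.6 counts per 1000 globin counts in Fes KO and 45.6, 28.6, 39.7, 56.3 and 44.3 in Fes WT. The highest ratios were in Fes KO 2 and Fes WT 4, the 2 tumours with least hemoglobin. The log2 difference of this ratio was -0.26 (exact permutation p = 0.349, adjusted p = 0.595, 2-sided), smaller than the SD of 0.46 within Fes KO. Alas2 and summed hemoglobin varied together over the 10 tumours (log2 CPM, Pearson's r = 0.952, permutation p = 0.000130, adjusted p = 0.00104 over 8 relations). Spearman's rho was 0.794 (permutation adjusted p = 0.0695). Without Fes KO 4 and Fes WT 3, the tumours farthest from the median of Alas2, r was 0.909 (permutation adjusted p = 0.0296). With 5 tumours in each group, no correlation is given within a group.

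Slc4a1 did not follow this pattern over the 10 tumours. Its log2 CPM had r = 0.00 and rho = 0.331 with summed hemoglobin (permutation adjusted p = 0.993 and 0.461). Relative to globin it gave 532 counts per 1000 globin counts in Fes KO 2, and 1.69 in Fes KO 4, 1.66, 1.30, 1.85 and 3.31 in Fes WT 1 to 4, and 0 in the remaining 4 tumours. A count of 0 allows up to 6.42, 5.43, 7.79 and 4.59 per 1000 in Fes KO 1, 3 and 5 and Fes WT 5. Fes KO 2 was therefore far outside the range that counting error gives the other tumours, and it had 9.14 Slc4a1 counts per Alas2 count where all others had at most 0.0588. Without Fes KO 2 and Fes KO 4, r with summed hemoglobin was 0.839 (permutation adjusted p = 0.0410), and this rests on 0 to 4 Slc4a1 counts per tumour. The difference between the groups in the log2 ratio of Slc4a1 to globin was 1.14 (exact permutation p = 0.857, 2-sided), and -0.61 without Fes KO 2 (exact permutation p = 0.302).

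**Figure D3:**
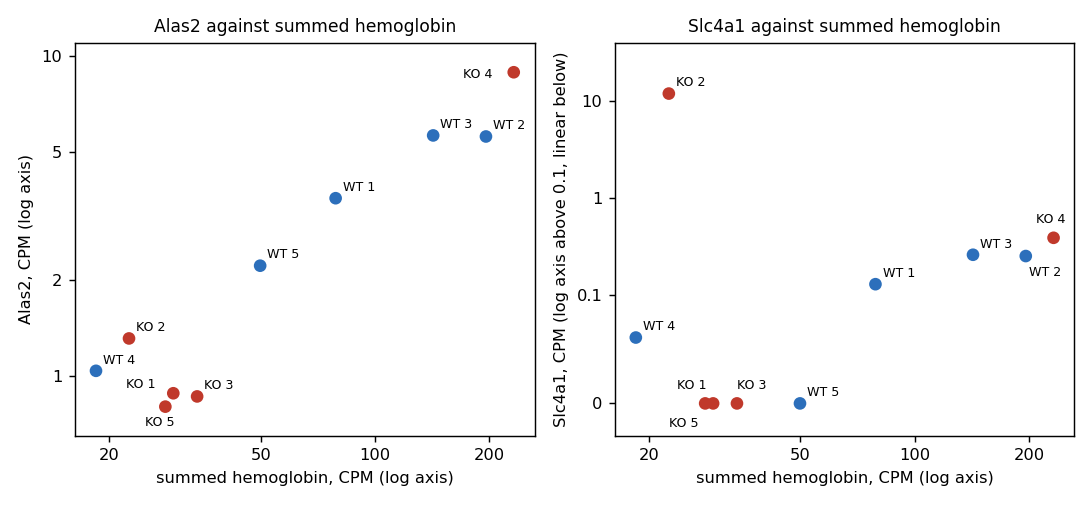
Alas2 (left) and Slc4a1 (right) in CPM against the summed CPM of the 4 adult globin genes in each tumour, red for Fes KO and blue for Fes WT; axes are logarithmic except for Slc4a1 below 0.1 CPM. Alas2 increases with hemoglobin over the tumours, and Slc4a1 at 12.0 CPM in Fes KO 2 lies away from the rest.

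Among the genes themselves the pattern across tumours was shared unevenly. Hbb-bs and Hbb-bt had r = 0.964 over 10 tumours on the log2 CPM scale, Hba-a1 and Hbb-bs 0.954, and Hba-a1 and Alas2 0.964. Hba-a2 went with them less closely, with r = 0.301 to Hba-a1 and 0.516 to Hbb-bs, and with rank correlations of 0.636 and 0.709. Fes WT 1, with 1 Hba-a2 count, is the lowest Hba-a2 point in these pairs. These correlations are descriptions, and the points share libraries and scaling factors.

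Other genes of the hemoglobin and red cell system were then counted from lists, some of which include the genes above. Of the embryonic and theta globin genes, Hba-x, Hbb-y, Hbb-bh0, Hbb-bh1, Hbb-bh2 and Hbb-bh3 had 0 counts in every tumour, and the theta genes Hbq1a and Hbq1b had 21 and 15 counts over all tumours. None of these 8 passed the filter. The genes most restricted to red cell precursors were also scarce. The membrane genes Epb42 and Rhag had 7 counts each over the 10 tumours and Kel 1, and Klf1, a transcription factor of the erythroid lineage, had 35. RNA of red cell origin was thus recognised mainly by adult globin and Alas2 in these libraries.

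In the heme synthesis list, 0 of 14 tested genes were called by edgeR. An unadjusted p below 0.05 was reached by 2 of the 14 and by 9.62% of all tested genes. The median log2 difference of the 14 was 0.12, against 0.01 over all tested genes, with 10 above 0 and 4 below. Fech, which inserts iron into the porphyrin ring, was at 87.4 CPM on average (log2 difference -0.11, SE 0.15). Slc25a39, a mitochondrial carrier, was at 87.3 CPM (0.27, SE 0.08, edgeR adjusted p = 0.342). Alas2 was the only one of the 14 below 0 by more than 0.2, and the only one whose correlation with summed hemoglobin exceeded 0.5, the next being Fech at 0.439.

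Of 20 genes of the red cell membrane and its skeleton, 11 were tested and 0 called, with a median of -0.06. An unadjusted p below 0.05 was reached by 0 of the 11 and by 9.62% of all tested genes. The correlations of the 11 with summed hemoglobin ran from -0.46 for Add2 to 0.505 for Ermap. Aqp1, the water channel that is also made by endothelium, was at 2552 CPM on average (log2 difference 1.29, SE 0.88, edgeR adjusted p = 0.662) with r = -0.07 to summed hemoglobin. The skeleton genes Sptb and Ank1 were at 34.8 and 21.7 CPM in Fes WT 3 and at no more than 6.24 and 3.49 CPM elsewhere. The skeletal muscle list was at its highest in that tumour too, with a mean log2 CPM of 9.87. Of its 15 genes 14 were tested, its summed level ranged from 5.83 to 2179 CPM in Fes KO and from 8.31 to 17853 CPM in Fes WT, and the part of muscle in the Sptb and Ank1 values was not tested.

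Of the 11 erythroid transcription factors 8 were tested and 0 called, with 1 below an unadjusted p of 0.05, and the median was -0.04. Ldb1, a cofactor of GATA factors that many tissues express, was at 186 CPM (log2 difference 0.13, SE 0.14), and Zbtb7a, a repressor of fetal globin, at 119 CPM (0.04, SE 0.13). Among 23 late erythroid genes, 18 were tested and 0 called, with 3 below an unadjusted p of 0.05 and a median of -0.01. Over all tested genes 9.62% were below an unadjusted p of 0.05. Prdx2, an abundant antioxidant of red cells, was at 188 CPM (0.15, SE 0.12), Steap3, a reductase of the transferrin cycle, at 156 CPM (-0.07, SE 0.35), and Bnip3l, which mediates removal of mitochondria from reticulocytes, at 127 CPM (0.16, SE 0.07). DESeq2 and limma also called 0 genes in the heme synthesis, membrane, transcription factor and late erythroid lists.

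Fes KO 2, the tumour with Slc4a1, was also the highest tumour for several genes of these lists. The mitochondrial iron importer Slc25a37 was at 136 CPM there against 30.5 to 49.9 CPM in the others. The iron exporter Slc40a1 was at 135 CPM against 4.18 to 17.0 CPM, and Bcl11a, a repressor of fetal globin genes that other cell types also express, at 12.6 CPM against 0.555 to 1.96 CPM. This tumour was rich in keratinocyte transcripts, with Krt5 at 1596 CPM against 0 to 74.5 CPM, and was second highest in skeletal muscle transcripts. Of 13 keratinocyte markers 4 were tested, and the summed level of all 13 was 13.3 to 6686 CPM in Fes KO and 14.5 to 298 CPM in Fes WT. Krt1 was at 0 in 7 of the other tumours. The part of keratinocytes and of the other cells of that tumour in these values was not tested. Its own summed hemoglobin, at 22.5 CPM, was the second lowest of all tumours.

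**Figure D4:**
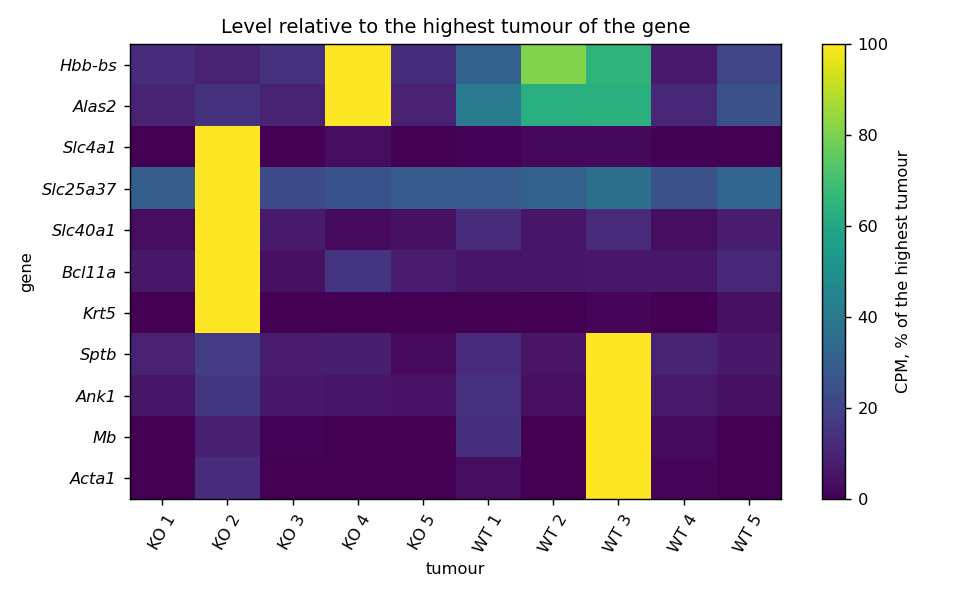
CPM of 11 genes in each tumour as a percentage of the gene's highest tumour (colour scale from 0 to 100%). Slc4a1, Slc25a37, Slc40a1, Bcl11a and the keratinocyte gene Krt5 have their highest tumour in Fes KO 2, Sptb, Ank1, Mb and the muscle gene Acta1 in Fes WT 3, and Hbb-bs and Alas2 in Fes KO 4.

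Of the 3 other heme-binding globins edgeR called 0, with 1 below an unadjusted p of 0.05, and limma called 0 while DESeq2 called 1. Over all tested genes 9.62% were below that unadjusted p in edgeR. Cygb, cytoglobin, a globin of fibroblast-like and other cells, was at 240, 268, 190, 242 and 181 CPM in Fes KO and at 530, 521, 547, 380 and 243 CPM in Fes WT. All Fes WT tumours but Fes WT 5 lay above all Fes KO tumours. The log2 difference was -0.99 (SE 0.22, edgeR unadjusted p = 0.00118, adjusted p = 0.183). DESeq2 called Cygb, in a fit that called 270 of 14537 genes. So did edgeR without Fes WT 5 (54 of 15023 genes called) and without the 3 tumours that express Xist (64 of 15106). The main edgeR fit called 26 of 14816 genes. Mb, the myoglobin of muscle, was at 336 CPM in Fes WT 3 and at 0.07 to 45.2 CPM elsewhere (log2 difference -3.52, SE 1.89, edgeR adjusted p = 0.586). Ngb, the neuronal globin, was at 1.45 CPM on average with a log2 difference of 0.00.

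For hemoglobin and heme clearance, 13 of 14 genes were tested, 0 were called by edgeR, DESeq2 or limma, 1 was below an unadjusted p of 0.05, and the median was -0.26 with 9 below 0 and 4 above. The ferritin heavy chain gene Fth1, an iron store, was at 1732 CPM (log2 difference -0.79, SE 0.40, edgeR adjusted p = 0.567). Hp, whose product haptoglobin binds free hemoglobin, had a mean CPM of 32.6 ± 43.0 for Fes KO and 90.7 ± 76.7 for Fes WT (SD, n = 5 each, log2 difference -1.47, SE 0.93, adjusted p = 0.635, edgeR). The haptoglobin-hemoglobin receptor Cd163 (-0.82, SE 0.49) and the heme oxygenase gene Hmox1 (-0.89, SE 0.58) were also lower in Fes KO on average, and neither passed the test. The 4 genes above 0 were Slc40a1 (1.49, SE 1.01), Hpx (0.39, SE 0.50), Slc48a1 (0.04, SE 0.12) and Hmox2 (0.02, SE 0.08). Slc40a1 was highest in Fes KO 2, at 135 CPM. Hmox1 was at 183 CPM in Fes WT 3, at 25.3 to 64.6 CPM in the other Fes WT tumours and at 21.5 to 76.1 CPM in Fes KO. Macrophages express Cd163 and Hmox1. The 12 macrophage markers were all below 0 with a median of -0.78, 7 at an unadjusted p below 0.05 and 0 called, where 7056 of all 14816 tested genes were below 0 and 9.62% had an unadjusted p below 0.05. Their summed level was 940 to 2241 CPM in Fes KO and 1501 to 3507 CPM in Fes WT, none of them was at 0 in a tumour, and their part in the clearance values was not tested.

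Summed hemoglobin was set against the mean log2 CPM of marker lists of other cells over the 10 tumours, as a check of whether blood content went with vessels or blood cells. For endothelial markers r was 0.567 and rho 0.588 (permutation adjusted p = 0.238 and 0.216), and r was 0.178 without Fes KO 4 and Fes WT 4. For macrophage markers r was 0.572 and rho 0.588 (permutation adjusted p = 0.238 and 0.216), for neutrophil markers 0.509 and 0.491 (0.272 and 0.264), and for platelet markers 0.357 and 0.479 (0.490 and 0.264). Keratinocyte and skeletal muscle markers had r = -0.24 and -0.05 and rho = -0.14 and -0.19 (permutation adjusted p of 0.693 or more). None of the 6 lists passed after adjustment over 8 relations. Each mean used only the tested genes of its list, 5 of 12 for platelets, 7 of 10 for neutrophils and 4 of 13 for keratinocytes. Of the 3 endothelial markers with the highest mean CPM, Eng was highest in Fes KO 1, Cdh5 in Fes KO 4, the tumour with most hemoglobin, and Plvap in Fes WT 5. The platelet gene Pf4 was highest in Fes WT 3, at 46.9 CPM over a range down to 14.0 CPM. Pf4 had r = 0.673 with summed hemoglobin, and the other tested platelet genes had 0.038 to 0.359.

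The tested genes whose log2 CPM most resembled summed hemoglobin across the 10 tumours, outside the 6 chosen genes, were Lrrc75a (Pearson's r = 0.913), C030034L19Rik (0.898), Ccl9 (0.882), Bnip1 (0.873), S1pr1 (0.866), Tmem252 (0.850), Spsb1 (0.843), Lrrc32 (0.842), Zeb2os (0.840) and Galnt15 (0.835). Hbb-bs, Hbb-bt, Hba-a1 and Alas2 came before all of them, and Hba-a2 ranked 1101 with 0.487. The globin genes are part of the sum, so their own correlations with it are partly built in. Alas2 is outside the sum. The 99th percentile over all 14816 genes was 0.683, so the list is the upper end of a wide distribution. Ccl9, a chemokine, ranged from 25.0 CPM in Fes WT 4 to 199 CPM in Fes WT 2. S1pr1, a sphingosine 1-phosphate receptor of endothelium and lymphocytes, ranged from 13.2 to 42.9 CPM.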

How the data were processed

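RNA sequencing of 10 mouse melanomas was analysed from 2 deposited tables. The authors deposited read counts per gene and log2 values of the counts divided by size factors plus 1. Per the submitters' processing notes the tools were STAR (version 2.51b), Subread (version 1.4.6) and FastQC, with GRCm38 and mm10 as builds. Tool settings, strandedness and read length are not given here by the sources. The sample titles gave group and replicate, and 0 columns were left unused.

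The test was edgeR's (version 4.0.16, R version 4.3.3; TMM, filterByExpr, quasi-likelihood test, Benjamini-Hochberg adjustment over 14816 genes, threshold 0.05). CPM are counts scaled to TMM-adjusted library sizes, and log2 CPM add a prior count of 2. Ratios to globin counts add 0.5 to the gene's count before the log2. Single values were compared by exact permutation, 2-sided, and correlations by 100000 permutations. Shares carry exact Clopper-Pearson intervals at 95%, and a count of 0 allows 3 counts. Same-numbered tumours did not deviate together (correlations -0.38 to 0.17), and the main fit did not pair them. These correlations cannot show whether same-numbered tumours share an origin or a batch. Alternatives were DESeq2 version 1.42.0, limma version 3.58.1 on the deposited log2 values, other scalings and filters, the replicate block, and leaving out tumours.

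Tested on simulated data of this comparison with 14685 genes, the edgeR fit found 58% of the genes given a 2-fold change and 84% of those given a 4-fold change, with 5 unchanged genes among 147 calls. The changed genes were drawn at random from genes above a minimum mean CPM, each with its own variation. These percentages are averages over such genes and were not worked out for the globin genes or Alas2, whose SEs were 0.77 to 1.03. All genes asked for and present are named. From each red cell list the tested genes with the highest mean CPM are named, up to 4, and from lists of other cells up to 3, together with the 10 genes most like summed hemoglobin. Cygb, Mb, Hp, Hpx, Cd163, Hmox1, Hmox2, Slc48a1, Add2 and Ermap were chosen after their values were seen. So were the red cell genes named for low counts and the genes highest in a single tumour. A further gene of the lists is not reported here. The genes and the lists were chosen with earlier results of these data known. Promoter sequences came from RefSeq (5 of 6 genes matched) and positions and coding sequences from GENCODE M21.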

Additional observations from a re-analysis of the deposited data

Results flagged for a closer look

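Across 24 groups of 5 tumours examined for one tumour that stands apart, 6 values did so, where chance marks about 1 in 20 groups. 5 of them were Fes KO 4 among the Fes KO tumours. Its log2 CPM was 5.38 for Hba-a1 (others 2.30 to 2.70), 4.89 for Hba-a2 (1.46 to 1.99), 7.10 for Hbb-bs (3.80 to 4.34) and 3.17 for Alas2 (-0.10 to 0.53), and 7.86 for summed hemoglobin (4.49 to 5.09). These 5 values share reads and are not independent. The sixth was Fes KO 2, whose log2 of Slc4a1 counts per 1000 hemoglobin counts was 9.06, with the other Fes KO tumours between -0.14 and 0.87.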

How the results depend on the processing

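None of the 4 hemoglobin genes and Alas2 was called in any of 20 alternative fits, nor Slc4a1 in the 1 fit that tested it. Genes called over the whole table numbered 26, and 270 with DESeq2, 64 without the 3 tumours that express Xist, and 10 to 54 when each tumour was left out. With the replicate block 4 genes were called, the Hba-a1 share kept its difference of -22.8 and the alpha share its -3.47 percentage points, both at an exact p of 0.0625, the smallest that 5 pairs allow, and log2 differences were -1.67 for Hba-a1, 0.64 for Hba-a2, -1.02 for Hbb-bs, -1.12 for Hbb-bt and -1.30 for Alas2. Without the Xist tumours the Hba-a1 share differed by -27.8 and the alpha share by -4.02 percentage points (exact permutation p = 0.0571 and 0.114), and the Slc4a1 ratio by -0.87. Leaving out each tumour gave alpha share differences from -4.45 to -2.75, Hbb-bt share differences from -1.73 to 0.18 and Slc4a1 ratios from -0.61 to 1.69; without both Fes KO 2 and Fes WT 3 the last was -0.58. Hba-a2 turned to -0.63 without Fes KO 4, and Hbb-bt to 0.016 without the Xist tumours. Leaving out each tumour gave log2 differences from -0.63 to 1.29 for Hba-a2 and from -1.78 to 0.15 for Hbb-bt, the last without Fes WT 2. Without the 2 farthest tumours, the relation of hemoglobin to keratinocyte markers turned to r = 0.307 and that to Slc4a1 reached 0.839. The cause of these shifts was not tested. With 302 to 3546 globin counts and 11 to 136 Alas2 counts per tumour, counting error limits the shares and Alas2 ratios of the tumours with least hemoglobin.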
